A study of Mus musculus with 16 samples.

Results

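Gene-dense stretches of the mouse genome were examined in late 2-cell embryos for H3K27ac and H3K4me3, 2 modifications of histone H3. Chromosomes 1 to 19 (build GRCm38, also called mm10) were divided into consecutive bins of 500 kb from their first base, and a bin was called gene-dense when it held the midpoints of 10 or more RefSeq protein-coding genes. Olfactory and vomeronasal receptor genes, which lie in large tandem arrays, were not counted. The rule gave 541 of 4930 bins (11.0%), which held 8293 of the 19207 counted genes (43.2%). It uses gene positions and no peak, although it was set with earlier results of these data known. Of the 541 bins 3, the first of chromosomes 1, 4 and 5, lie in the first 3 Mb of a chromosome, which is not sequenced in GRCm38. The gene table's positions for their 60 genes, nearly all predicted, therefore cannot be places on these chromosomes, no peak of any list begins there, and none of the 60 has a listed start. These bins are kept in the counts as the rule gives them and hold 0 bases in all 4 lists, so that 538 bins could hold peaks. A gene-dense bin held between 10 and 42 counted genes, with a median of 13, and 108 bins held 20 or more. Genes were shorter there, with a median length of 11.6 kb against 31.6 kb in the other bins. Many of the bins adjoined one another: 379 of them lay in 116 runs of 2 or more, so neighbouring bins are not independent of each other.

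The embryos had received water (control) or Hdac1 mutant mRNA (mutant) by injection at the zygote stage and were collected 36 h after fertilization. Both modifications were profiled by native chromatin immunoprecipitation of whole embryos whose zona pellucida had been removed, in 2 immunoprecipitated and 2 input libraries for each mark and condition (16 libraries in 8 groups). The labels name no deletion of the Hdac1 gene, no mouse strain and no mutated residue. The values rest on 4 peak lists, 1 for both libraries of each mark and condition, which give positions without heights. No value therefore has a replicate error, no test of the conditions was possible, and the sequencing depth behind the lists is unknown. A place without a peak is a place where none was listed, which does not show that the modification was lacking.

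HDAC1 strips acetyl groups off histone tails and works within corepressor complexes such as NuRD, Sin3 and CoREST. H3K27ac, one of the acetylations it can remove, lies at enhancers and promoters in use. H3K4me3 is a methylation typical of promoters, above all those rich in the dinucleotide CpG. At the late 2-cell stage the mouse embryo passes through the main wave of zygotic genome activation. Gene-dense stretches hold many genes that nearly every cell uses, among them those for ribosomal proteins, proteasome subunits and translation factors, and they also hold tandem arrays of tissue-restricted genes such as keratins, defensins and protocadherins.

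The sequences upstream of 6 genes of these bins are shown because their peaks behaved in different ways. Each is the 250 bases before the first start that RefSeq lists for the gene, on the gene's strand, 5′ to 3′, in GRCm38.p6, with each CpG in capitals. Pou5f1, which encodes the pluripotency factor OCT4, is given from chr17:35505782-35506031 (plus strand). Eef2, a translation elongation factor, is from chr10:81176381-81176630 (plus strand). Chd4, the remodelling ATPase of NuRD, is from chr6:125095731-125095980 (plus strand). Trp53, which encodes the tumour suppressor p53, is from chr11:69580109-69580358 (plus strand). Krt18, a keratin of simple epithelia, is from chr15:102027966-102028215 (plus strand). Lce1a1, a cornified envelope protein of skin, is from chr3:92648308-92648557 (minus strand).
Pou5f1: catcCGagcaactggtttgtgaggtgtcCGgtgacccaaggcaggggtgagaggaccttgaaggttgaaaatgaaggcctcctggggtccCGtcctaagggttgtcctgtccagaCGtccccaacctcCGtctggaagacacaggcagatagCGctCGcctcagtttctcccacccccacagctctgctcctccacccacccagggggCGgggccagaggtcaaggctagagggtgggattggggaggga
Eef2: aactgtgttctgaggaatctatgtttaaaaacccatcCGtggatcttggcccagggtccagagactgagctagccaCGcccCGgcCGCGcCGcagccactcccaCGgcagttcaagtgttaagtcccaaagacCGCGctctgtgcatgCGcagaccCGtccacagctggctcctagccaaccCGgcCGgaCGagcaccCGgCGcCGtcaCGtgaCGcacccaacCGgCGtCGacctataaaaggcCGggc
Chd4: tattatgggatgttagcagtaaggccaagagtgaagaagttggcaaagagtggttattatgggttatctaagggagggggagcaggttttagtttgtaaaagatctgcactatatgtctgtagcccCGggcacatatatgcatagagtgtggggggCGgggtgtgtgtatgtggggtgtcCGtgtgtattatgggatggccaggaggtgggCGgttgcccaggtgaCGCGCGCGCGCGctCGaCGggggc
Trp53: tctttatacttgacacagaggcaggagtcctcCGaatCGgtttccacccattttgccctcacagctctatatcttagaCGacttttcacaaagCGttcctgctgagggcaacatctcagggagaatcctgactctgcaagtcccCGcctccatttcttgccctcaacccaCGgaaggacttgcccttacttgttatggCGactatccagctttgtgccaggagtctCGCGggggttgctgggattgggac
Krt18: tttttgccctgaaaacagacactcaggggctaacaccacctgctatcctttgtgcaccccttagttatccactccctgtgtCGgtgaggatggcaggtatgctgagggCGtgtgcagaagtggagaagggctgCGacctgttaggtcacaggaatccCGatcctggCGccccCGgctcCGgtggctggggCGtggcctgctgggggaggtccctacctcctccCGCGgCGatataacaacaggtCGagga
Lce1a1: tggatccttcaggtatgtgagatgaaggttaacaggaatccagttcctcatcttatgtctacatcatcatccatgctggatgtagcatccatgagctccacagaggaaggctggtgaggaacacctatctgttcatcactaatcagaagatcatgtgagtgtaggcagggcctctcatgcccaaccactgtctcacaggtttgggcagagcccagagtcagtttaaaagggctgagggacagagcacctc

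These stretches held 8 CpG (Pou5f1), 23 (Eef2), 12 (Chd4), 9 (Trp53), 12 (Krt18) and 0 (Lce1a1), against a median of 11 over the 6629 genes of gene-dense bins with a listed start. H3K4me3 peaks covered 100% of the first 5 stretches in both conditions and 0% of the Lce1a1 stretch. H3K27ac peaks covered 100% of the Pou5f1 and Eef2 stretches in control and 0% in the mutant, and 0% of the Krt18 stretch in control and 100% in the mutant. They covered 0% of the Chd4, Trp53 and Lce1a1 stretches in both. The letters TATAAA, searched on both strands, occurred in the Eef2 and Trp53 stretches and upstream of 10.4% of all 15197 counted genes with a listed start. CCAAT occurred in the Pou5f1 and Trp53 stretches and in 36.1% of all, and GGGCGG in the Pou5f1 and Chd4 stretches and in 47.1% of all.

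The first comparison was of the bases covered by peaks. H3K27ac peaks covered on average 30.9% of a gene-dense bin in control and 25.8% in the mutant, or 83.6 Mb and 69.8 Mb in all, a ratio of 0.83. H3K4me3 peaks covered 30.7% and 31.8%, or 83 Mb and 86.0 Mb, a ratio of 1.04. The direction of the H3K4me3 difference depended on the scaling of the lists, and its cause was not tested. As deposited, the mutant H3K4me3 list covered 1.11 times the autosomal bases of the control list. After the mutant lists were scaled to the control totals, the H3K4me3 ratio became 0.94, on the other side of 1, and the H3K27ac ratio 0.85. H3K4me3 ratios between 1 and 1.11 below are all subject to that change of direction.

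In the gene-dense bins H3K27ac thus covered less in the mutant with either scaling, whereas the direction of H3K4me3 was not stable. Bins with more than 50% of their bases under H3K27ac peaks numbered 91 in control and 24 in the mutant, while those with more than 50% under H3K4me3 peaks numbered 82 and 84. The H3K27ac coverage of single bins ranged up to 77.0% in control and 64.1% in the mutant. Without the 3 bins of unsequenced stretches the lowest were 0.147% and 0%, and the medians 30.2% and 25.9%. The corresponding H3K4me3 ranges were 0% to 67.7% and 0% to 71.9%, with the middle 50% of bins at 19% to 41.5% and 20.9% to 43.1%.

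The H3K27ac ratio was lower in classes of higher gene density. The mutant-to-control ratio was 0.83 in bins of 10 or more counted genes, 0.94 in bins of 5 to 9, 1.17 in bins of 1 to 4 and 1.35 in bins without a counted gene. For H3K4me3 the 4 ratios were 1.04, 1.08, 1.20 and 1.18, so that the order did not hold at the gene-poor end. The share of all H3K27ac-covered autosomal bases that lay in gene-dense bins was 34.6% in control and 29.4% in the mutant, and that of H3K4me3 was 33.6% and 31.5%. Both differences in share are free of the list totals. At the limit of the rule, bins of exactly 10 genes had a ratio of 0.85 for H3K27ac and bins of exactly 9 genes 0.90, and both sets had 1.04 for H3K4me3. Among the gene-dense bins the H3K27ac ratio was 0.86 at 10 to 14 genes, 0.84 at 15 to 19, 0.77 at 20 to 29 and 0.82 at 30 or more, with no steady order.

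**Figure D1:**
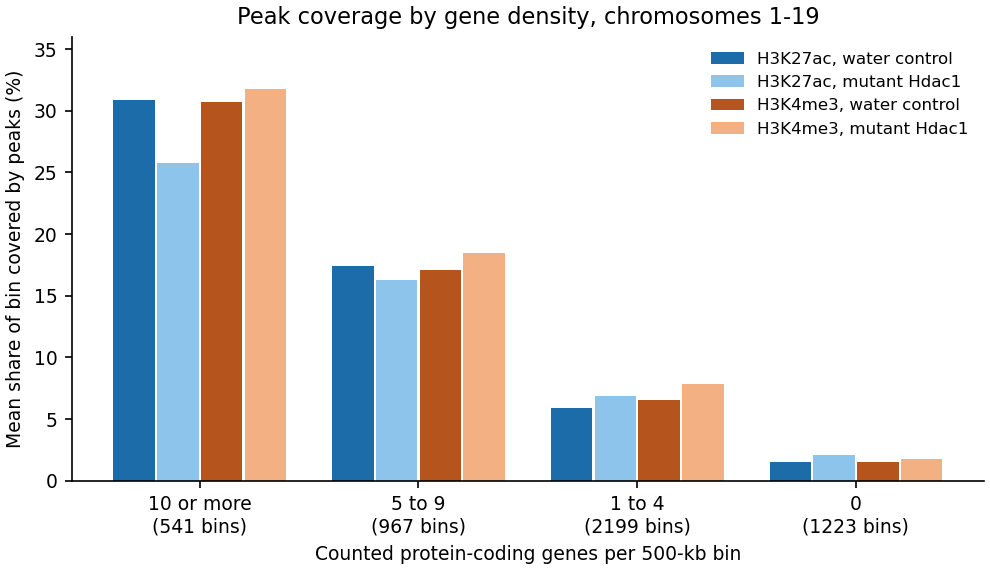
Mean share of a 500-kb bin covered by peaks (vertical axis, %) for bins grouped by their number of counted genes (horizontal axis), with 1 bar for each of the 4 peak lists and no error bars because each mark and condition has 1 list. In bins of 10 or more genes H3K27ac coverage is 30.9% in control and 25.8% in the mutant, while in bins of 1 to 4 genes it is 5.87% and 6.90%; the H3K4me3 bars of the densest group, 30.7% and 31.8%, change order after scaling to equal autosomal totals.

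The number of genes was not the only property that ordered the ratios, because gene-dense bins were also the most covered. Bins were therefore compared within classes of the mean coverage of both lists of a mark. Where H3K27ac covered 40% or more, the ratio was 0.79 in 129 gene-dense bins and 0.80 in 60 other bins. It was 0.83 and 0.84 at 30% to 40%, 0.85 and 0.92 at 20% to 30%, 0.94 and 1.05 at 10% to 20%, and 1.20 and 1.31 at 5% to 10%. For H3K4me3 the ratios were equal at 1.01, 1.03 and 1.07 in the upper 3 classes, and were 1.08 in gene-dense and 1.18 in other bins at 10% to 20%, and 1.29 and 1.31 at 5% to 10%. Well-covered bins below the gene limit thus had nearly the same ratios as well-covered gene-dense bins. Of the 38 other bins with more than 50% under H3K27ac in control, 35 held 5 to 9 genes, 3 held 1 to 4 and 0 held none. The lower H3K27ac ratio is therefore not shown to be particular to gene density.

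**Figure D2:**
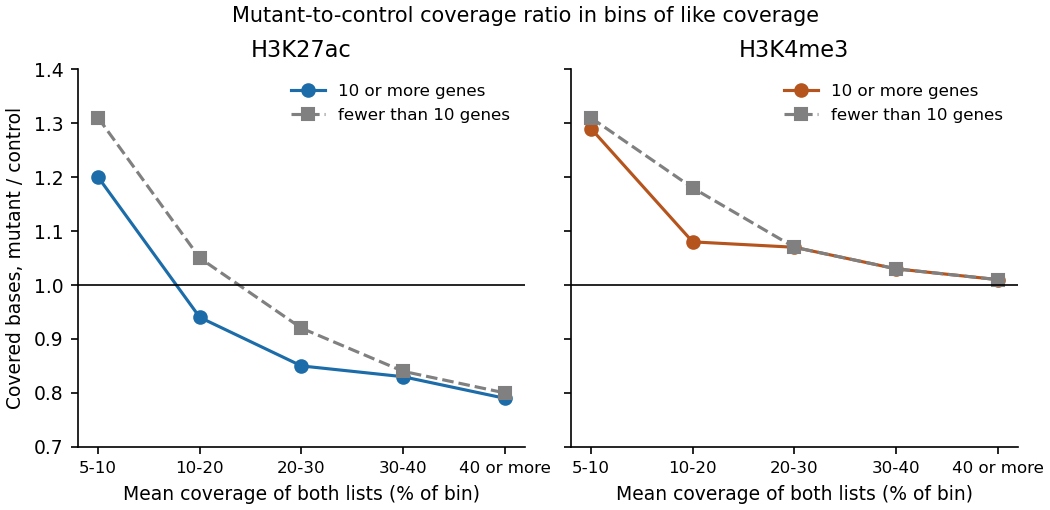
Ratio of covered bases, mutant over control (vertical axis), for bins grouped by the mean coverage of both lists of a mark (horizontal axis, % of bin), as points joined by lines for gene-dense bins (circles) and bins with fewer than 10 counted genes (squares). The H3K27ac lines meet at high coverage, at 0.79 and 0.80, and the H3K4me3 lines meet in the 3 upper classes; H3K4me3 ratios between 1 and 1.11 fall below 1 after scaling to equal totals.

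The lower H3K27ac coverage of gene-dense bins was seen on each chromosome. The ratio over the gene-dense bins of a chromosome lay between 0.75 (chromosome 14) and 0.95 (chromosome 13), below 1 on 19 of 19 chromosomes and below the ratio of the other bins of the same chromosome on 19 of 19. Chromosome 11, which held the most gene-dense bins (63), went from 12.3 Mb to 9.92 Mb. For H3K4me3 the ratio lay between 0.91 (chromosome 16) and 1.11 (chromosome 1), above 1 on 14 chromosomes and below 1 on 5 as deposited. It too was below that of the other bins on 19 of 19 chromosomes. Chromosomes of the same 2 lists are not replicates of the conditions.

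Single bins were called when their covered bases differed at least 1.5-fold between the conditions and at least 10 kb were covered in 1 of them. For H3K27ac, 80 of 525 gene-dense bins that could be called (15.2%) were lower in the mutant, against 12.8% of all autosomal bins. Higher calls numbered 45 (8.57%), against 33.8% of all bins. The order of the 2 counts turned round at a 2-fold limit, with 6 lower and 23 higher. The share of all bins called at that limit was not computed, so these 2 counts have no background. By any size of difference, 384 of the 525 (73.1%) were lower, against 42.1% of all bins. The share called lower was thus near the background, while fewer gene-dense bins were called higher and more were lower by any size than over all bins. Within classes of like coverage the 2 kinds of bin lay closer: 5.43% of gene-dense and 6.67% of other bins were higher in the mutant by any size at a mean H3K27ac coverage of 40% or more, 15.8% and 21.7% at 30% to 40%, 23.9% and 33.1% at 20% to 30%, 43.2% and 55.4% at 10% to 20%, and 65.9% and 70.1% at 5% to 10%. For H3K4me3, 33 of 528 gene-dense bins (6.25%) were called higher, against 24.4% of all bins, and 7 (1.33%) lower, against 6.82%. After scaling to equal totals these counts were 23 (4.36%, against 18.2% of all bins) and 14 (2.65%, against 9.20%). By any size 208 (39.4%) were lower, against 32.4%, a count that became 331 (62.7%, against 45.3%) after scaling to equal totals. The shares of called bins were not adjusted for the coverage of the bins.

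**Figure D3:**
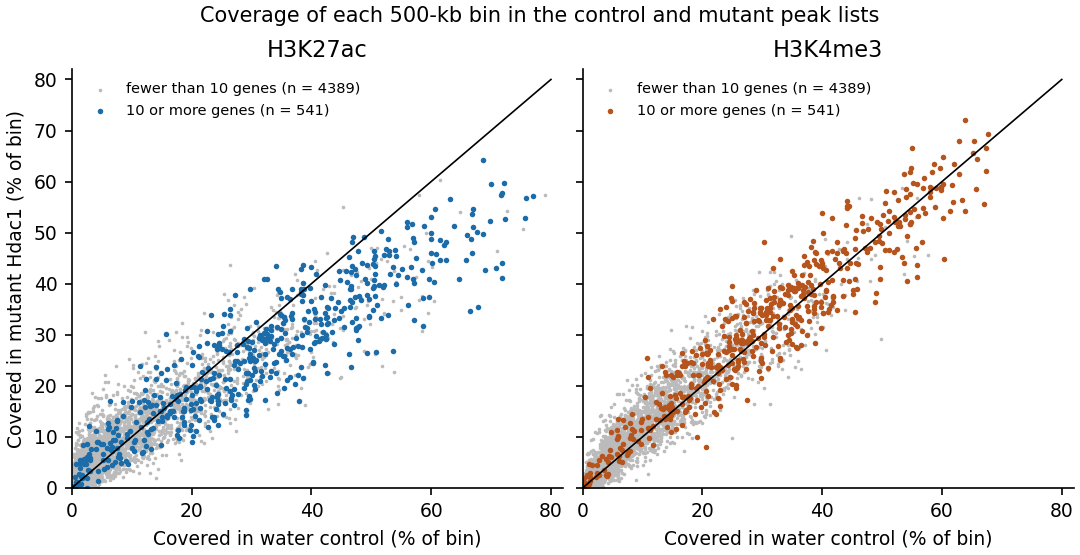
Coverage of each 500-kb bin by H3K27ac (left) and H3K4me3 (right) peaks in the control list (horizontal axis, % of bin) and the mutant list (vertical axis, % of bin), as 1 point for each of 541 gene-dense (coloured) and 4389 other bins (grey), with the line of equal values. For H3K27ac 392 gene-dense bins lie below the line and 146 above it; for H3K4me3 212 lie below and 325 above as deposited, an order that turns round after scaling to equal totals.

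The widths of the peaks also differed, in opposite directions for the 2 marks. The gene-dense bins held 15128 H3K27ac peaks in control and 20324 in the mutant, with median widths of 2927 bp and 2161 bp. Peaks wider than 5 kb made up 35.3% (95% Wilson interval 34.5 to 36.0) and 22.9% (22.4 to 23.5), where the intervals cover counting error only. Peaks wider than 10 kb numbered 2518 and 1306, those wider than 20 kb 719 and 124, and the widest peak measured 102512 bp and 42583 bp. The list sizes bear on the median: with both lists cut to equal numbers of peaks by width, the ratio of the medians was 1.02 in place of 0.74, and the share wider than 5 kb still differed by -6.45 percentage points.

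H3K4me3 peaks numbered 18920 in control and 16822 in the mutant, with median widths of 2743 bp and 3259 bp. The share wider than 5 kb was 28.1% (27.5 to 28.8) and 35.5% (34.8 to 36.2), and peaks wider than 10 kb numbered 1945 and 2431. Bins of 5 to 9 genes also had narrower H3K27ac peaks in the mutant, with medians of 1881 bp and 1468 bp (ratio 0.78), while the ratio was 1.01 at 1 to 4 genes and 1.20 in bins without a counted gene. The H3K4me3 ratios of these 3 classes were 1.06, 1.06 and 1.08, against 1.19 in the gene-dense bins. The number of peaks wider than 10 kb had a ratio of 0.52 in gene-dense bins and 0.40 in the others for H3K27ac, while for H3K4me3 the other bins went from 2125 to 3066 such peaks. The fewer wide H3K27ac peaks and the more numerous wide H3K4me3 peaks were thus common to both kinds of bin.

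**Figure D4:**
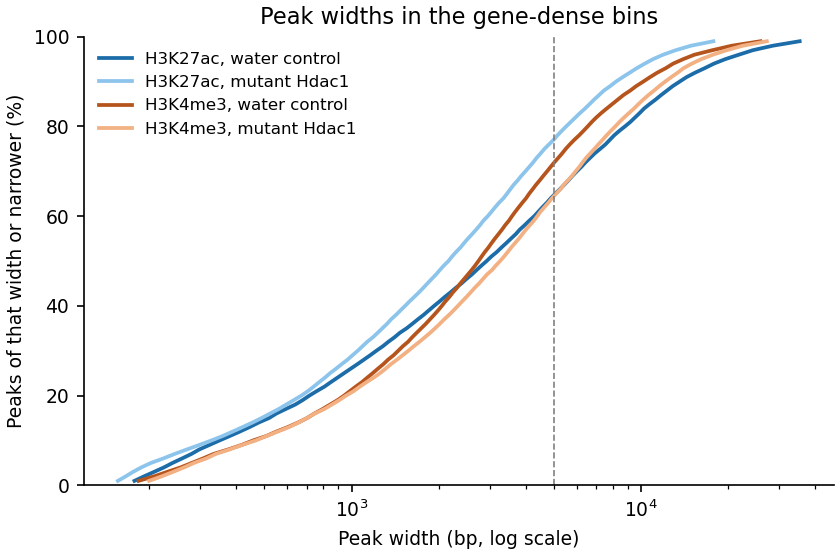
Cumulative share of peaks (vertical axis, %) by width (horizontal axis, bp, log scale) in the gene-dense bins, as 1 line for each of the 4 peak lists, drawn between the 1st and 99th percentiles, with a dashed line at 5 kb. At 5 kb the mutant H3K27ac line lies above its control, with 22.9% against 35.3% of peaks wider than this limit, and the mutant H3K4me3 line lies below its control, with 35.5% against 28.1%.

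The broad H3K27ac peaks of control embryos were followed into the mutant list. Of the 2518 control peaks wider than 10 kb, 1764 (70.1%) met 2 or more mutant peaks, 612 met 1 and 142 met none. The share that met 2 or more was also 70.1% in the other bins. The median share of their bases still covered was 60.7%, against 52.5% in the other bins, and the widest mutant peak they met had a median of 7904 bp, against a median control width of 15077 bp. Of 1945 control H3K4me3 peaks wider than 10 kb, the median share still covered was 87.4%, and the widest mutant peak they met had a median of 13209 bp against 13784 bp. These peaks were chosen for their width in control embryos, and narrower partners in the other list are favoured by that choice.

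The widest control H3K27ac peak of the gene-dense bins covered the starts of Nfatc3, Esrp2, Pla2g15 and Slc7a6 (chr8:106078915-106181426), and 52.4% of it was covered in the mutant. The next covered Arid1a, a subunit of the SWI/SNF remodelling complex (chr4:133750994-133844588), of which 71.3% was covered in the mutant. The widest control H3K4me3 peaks of these bins were 82762 bp over Mark2 and Spindoc (chr19:7335775-7418536), of which 76.6% was still covered, and 72708 bp over 8 genes that include Eif5a and Slc2a4 (chr11:69912873-69985580), of which 96.1% was. H3K27ac covered 88.8% of that stretch in control and 23.8% in the mutant. Peaks chosen as widest in a list are favoured to be less covered in the other. The 2 widest mutant H3K27ac peaks, at Mapk13 and at Fam160b2 and Dmtn, were covered by 78.3% and 87.8% in control. The 2 widest mutant H3K4me3 peaks, at Rhbdl3 and at 5 genes that include Ell, were covered by 75.4% and 88.8% in control.

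Within the gene-dense bins, H3K27ac was lower near gene starts, along gene bodies and between genes. Within 2 kb of a listed start the covered share was 41.3% in control and 33.5% in the mutant, along the rest of gene bodies 33.2% and 26.8%, and outside counted genes 25.1% and 22.5%. The H3K4me3 shares were 60.3% and 62.7% near starts, 27.6% and 27.9% along gene bodies, and 27.3% and 29.2% outside genes. In the other bins the H3K27ac ratio was 0.90 near starts and 1.18 outside genes, where the gene-dense bins had 0.81 and 0.89.

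Both marks overlapped less in the mutant lists. Bases of gene-dense bins under both marks amounted to 55.2 Mb in control and 39.9 Mb in the mutant. This was 66.5% and 46.4% of the H3K4me3-covered bases, but 66.0% and 57.2% of the H3K27ac-covered bases, a smaller fall. In the other bins the shares were 46.2% and 31.7% of H3K4me3 bases, and 47.9% and 35.4% of H3K27ac bases. Bases under H3K4me3 alone amounted to 27.8 Mb and 46.1 Mb, while those under H3K27ac alone were nearly equal, at 28.5 Mb and 29.9 Mb. Between the conditions, the H3K27ac lists shared 43.4 Mb in gene-dense bins, 51.9% of the control and 62.3% of the mutant bases, against 43.6% and 44.5% over all bins. The H3K4me3 lists shared 57.4 Mb, 69.2% and 66.7%, against 58.6% and 53% over all bins.

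Peaks at gene starts were counted up to 2 kb to either side of each start that RefSeq lists, which were at hand for 6629 of the 8293 genes of the gene-dense bins. A peak at a start thus reaches into that window and need not cover the start itself. An H3K27ac peak was present at 4024 starts in control (60.7%) and 3703 in the mutant (55.9%). Of all 6629 genes, marked or not, 1172 (17.7%) had a peak in control only, against 16.7% of all counted genes, and 851 (12.8%) in mutant only, against 15.8% of all. An H3K4me3 peak was present at 5367 (81.0%) and 5145 (77.6%). Here 499 (7.53%) had one in control only, against 7.76% of all counted genes, and 277 (4.18%) in mutant only, against 4.40% of all. The shares of all genes losing a peak were thus close to the background, but more starts were marked in gene-dense bins. Of starts with H3K27ac in control, 29.1% (95% Wilson interval 27.7 to 30.5) had none in the mutant, against 36.0% (34.5 to 37.6) in the other bins. The intervals cover counting error only and take genes as independent, which they are not. Control H3K27ac peaks over the starts of 2 or more genes held 1305 genes in gene-dense bins and 648 in the others. The difference was not tested. For H3K4me3 these shares were 9.30% and 10.1%. The H3K27ac difference in marked genes depended on the window, being -69 at 5 kb and -464 at 1 kb in place of -321. It was -555 with lists of equal size by width. The H3K4me3 difference was -96 at 5 kb and -221 at 1 kb in place of -222.

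The widths of the peaks at starts were compared as well, although not with lists of equal size. Among the 2852 genes with an H3K27ac peak in both conditions, the widest peak had a median of 10455 bp in control and 6084 bp in the mutant and was narrower in the mutant at 1927 (67.6%, against 66.3% of all counted genes). In the other bins the medians were 6948 bp and 4423 bp. Among 4868 genes with an H3K4me3 peak in both, the medians were 6512 bp and 8822 bp, and 1750 (35.9%, against 34.5% of all) were narrower. In the other bins these medians were 4251 bp and 5994 bp.

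Starts with both marks numbered 3820 in control and 3320 in the mutant. Of the 3820, 2645 (69.2%) kept both, 956 had H3K4me3 alone in the mutant, 127 had H3K27ac alone and 92 had neither. In the other bins 62.4% of starts with both marks kept both. Of 1547 starts with H3K4me3 alone in control, 571 (36.9%) had both in the mutant, against 36.5% in the other bins. Single peaks that covered the starts of 2 or more genes numbered 586 for H3K27ac in control and 330 in the mutant, and 316 and 174 in the other bins. The most genes under 1 such peak were 8 and 5. For H3K4me3 these peaks numbered 763 and 771.

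Both marks followed the CpG content of the upstream sequence. Among genes of gene-dense bins with 0 to 4 CpG in the 250 bases before the start, H3K27ac was listed at 36.3% in control and 39.1% in the mutant, and 46.9% and 45.0% had H3K4me3. With 20 or more CpG, 74.9% and 65.8% had H3K27ac, and 99.4% and 96.4% had H3K4me3. The starts where H3K27ac was listed in control only had a median of 13 CpG, close to the 14 of those with it in both, and those where it was listed in mutant only had 8. In the other bins, starts with 0 to 4 CpG had H3K27ac at 25.4% in control and 31.8% in the mutant, and those with 20 or more at 57.0% and 54.2%. These are shares over genes of the same 4 lists.

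Genes of shared function were grouped by the stems of their symbols and followed in the gene-dense bins. For reference, the widest start peak had a median of 9220 bp and 5231 bp for H3K27ac (control and mutant) and 6065 bp and 8446 bp for H3K4me3 over all marked genes of these bins. Of starts marked with H3K27ac in control 29.1% lost the peak, and of those unmarked 32.7% gained one. Among genes for making proteins, all 33 cytosolic ribosomal protein genes with a listed start bore an H3K27ac peak in the control list and 22 did in the mutant, so that 33.3% lost it, near that reference, with a median widest peak of 20290 bp and 5941 bp over those marked. H3K4me3 was present at all 33 in both lists (median 12237 bp and 10907 bp). For mitochondrial ribosomal proteins, 29 of 37 starts had H3K27ac in control and 21 in the mutant, with 12 lost (41.4% of the 29) and 4 gained. For translation factors the counts were 27 and 23 of 31, with 22.2% of the marked lost, and the median widths 15017 bp and 5836 bp. Rps27, a protein of the small ribosomal subunit, had an H3K27ac peak of 44231 bp at its start in control and none in the mutant, and H3K4me3 peaks of 16293 bp and 30844 bp. Eif2b4, a subunit of the exchange factor of eIF2, had an H3K27ac peak of 71138 bp and none. Examples of each group were taken from those with the widest control peaks, a choice that favours a narrower mutant peak, except Cdk4, which was on the list for inspection.

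Of the marked starts of genes of protein turnover, energy and transcription, 23.5% lost H3K27ac for proteasome, 22.2% for respiratory chain and 17.4% for polymerase and Mediator genes, which is 4, 8 and 4 genes, beside 29.1% over all marked genes of gene-dense bins. Of the 20 proteasome subunit genes, 17 had H3K27ac in control and 13 in the mutant, and 20 and 19 had H3K4me3. Psmd11, of the regulatory particle, had an H3K27ac peak of 36649 bp in control and none in the mutant. Of 42 respiratory chain genes, a group in which symbol stems also take in assembly factors such as Ndufaf3, 36 and 30 had H3K27ac. Ndufb10, a subunit of complex I, had peaks of 58424 bp and 5833 bp. The control width was also that of Rps2 and Rpl3l, ribosomal protein genes of the same bin. Of 24 RNA polymerase and Mediator genes, 23 and 19 had H3K27ac, and all 24 had H3K4me3 in both. Med1, a Mediator subunit, had H3K27ac peaks of 48078 bp and 1619 bp and H3K4me3 peaks of 36211 bp and 36203 bp. Cdk12, in the same bin, had the same control H3K27ac width and the same H3K4me3 widths. Of 27 splicing factor genes 21 and 17 had H3K27ac, with 33.3% of the marked lost. Srsf3, a splicing regulator, had peaks of 35733 bp and 3929 bp.

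Of 30 genes with chaperone stems, 20 had H3K27ac in control and 22 in the mutant. Of the 20 marked starts 4 lost it and of the 10 unmarked 6 gained it, beside 29.1% and 32.7% over all genes of gene-dense bins, a difference that was not tested. Of 19 genes with cyclin or cyclin-dependent kinase stems, 17 and 14 had it, with 23.5% of the marked lost. Ccnb1, the mitotic cyclin B1, had H3K27ac peaks of 46475 bp and 6984 bp, and Cdk4, a kinase of the G1 phase, had 7915 bp in control and none in the mutant.

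Genes for deacetylases and corepressors, for acetyltransferases and bromodomain readers, and for histone methyltransferases and demethylases lay in gene-dense bins in part. Some of them act on histone residues other than those studied here. Of 16 genes for deacetylases and their corepressors with a listed start, 14 had H3K27ac in control and 13 in the mutant, and all 16 had H3K4me3 in both. Their median H3K27ac widths were 8120 bp and 8685 bp over those marked in each list, which are not the same genes. Of the marked starts 14.3% lost H3K27ac, beside 29.1% over all marked genes of gene-dense bins. Gatad2a, a NuRD subunit, had H3K27ac peaks of 31095 bp and 26431 bp, and Rcor2, a CoREST subunit, 36468 bp and 9593 bp. Of 11 acetyltransferase and bromodomain genes, 11 and 9 had H3K27ac, with 18.2% lost. Ep300, which encodes the acetyltransferase p300, had H3K27ac peaks of 26504 bp and 9076 bp. Of 14 methyltransferase and demethylase genes, 14 and 12 had it, with 14.3% lost and median widths of 5852 bp and 9868 bp. These shares rest on 2 lost genes in each of the 3 groups. Dot1l, the H3K79 methyltransferase, had 19993 bp and 25971 bp, and Setd2, the H3K36 methyltransferase, 65429 bp and 5286 bp.

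Cornified envelope and kallikrein genes had few H3K27ac peaks in either condition. Of 34 cornified envelope genes, 2 bore H3K27ac at the start in each list, and the same numbers had H3K4me3. They were not the same genes, since for each mark 1 of the 2 was lost and 1 of the 32 unmarked gained. Of 26 kallikrein genes, 1 and 3 had H3K27ac, and 6 and 4 had H3K4me3, with 5 of the 6 lost, against 9.30% over gene-dense bins, and 3 of 20 gained, against 21.9%. Of 88 genes with the Krt stem, which takes in keratins and keratin-associated proteins, 14 had H3K27ac in control and 22 in the mutant, with 10 of the 14 lost (71.4%, against 29.1% over gene-dense bins) and 18 of the 74 unmarked gained (24.3%, against 32.7%). Hox genes, which pattern the body axis, had H3K4me3 at 21 and 20 of 22 starts and H3K27ac at 6 and 9, with 4 of the 6 lost and 7 of 16 gained. Of 53 replication-dependent histone genes, 32 had H3K27ac in control and 27 in the mutant, with 15 of the 32 lost (46.9%, against 29.1%) and 10 of the 21 unmarked gained (47.6%, against 32.7%). H3K4me3 was at 50 and 41 of them, with 12 of the 50 lost, against 9.30% over gene-dense bins, and 3 of 3 gained. Differences of these groups from the rest were not tested.

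Of 51 genes listed for inspection, 35 lay in 28 gene-dense bins. H3K27ac coverage was lower in the mutant in 24 of these bins and higher in 4, and H3K4me3 coverage was lower in 17 and higher in 11 as deposited. Over all gene-dense bins 72.5% were lower for H3K27ac and 39.2% for H3K4me3. The bin of Pou5f1 (chr17:35500001-36000000, 26 genes) had 354 kb under H3K27ac in control and 215 kb in the mutant, and 328 kb and 293 kb under H3K4me3. At the start of Pou5f1 itself the H3K27ac peak measured 25293 bp in control and none was listed in the mutant, while the H3K4me3 peak measured 12174 bp and 25885 bp. The bin of Nanog, another pluripotency factor, Dppa3 and Gdf3 (chr6:122500001-123000000) had 177 kb and 167 kb under H3K27ac and 212 kb and 174 kb under H3K4me3. At the start of Nanog the H3K27ac peaks measured 8506 bp and 6436 bp and the H3K4me3 peaks 5556 bp and 12452 bp.

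The bin of Hdac1, whose mutant mRNA was injected (chr4:129500001-130000000, 15 genes), had 334 kb under H3K27ac in control and 230 kb in the mutant, and 301 kb and 298 kb under H3K4me3. The bin of Chd4 and Gapdh, a glycolytic enzyme (chr6:125000001-125500000, 19 genes), had 254 kb and 133 kb under H3K27ac and 248 kb and 216 kb under H3K4me3. At the start of Chd4 the H3K27ac peak measured 17955 bp in control and none was listed in the mutant, and the H3K4me3 peaks measured 4349 bp and 14819 bp. The bin of Eef2 (chr10:81000001-81500000, 32 genes) had 217 kb and 153 kb under H3K27ac and 270 kb and 285 kb under H3K4me3. At its start the H3K27ac peak was 19818 bp in control and none was listed in the mutant, and the H3K4me3 peak was 34724 bp and 10905 bp.

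The bin with the most genes, 42, held Trp53, Eif4a1, a translation helicase, and Polr2a, the largest subunit of RNA polymerase II (chr11:69500001-70000000). It had 298 kb under H3K27ac in control and 187 kb in the mutant, and 314 kb and 340 kb under H3K4me3. Its 3 listed genes did not follow 1 pattern. Trp53 had no H3K27ac peak at its start in control and one of 13961 bp in the mutant, Eif4a1 had peaks of 6355 bp and 15104 bp, and Polr2a had 8261 bp and 2497 bp. The bin of Krt8 and Krt18 (chr15:102000001-102500000) had 330 kb and 248 kb under H3K27ac. Krt18 had H3K27ac peaks of 220 bp and 7387 bp at its start and H3K4me3 peaks of 10311 bp and 21646 bp. Krt8, its partner in simple epithelia, had no H3K27ac peak at its start in either list and H3K4me3 peaks of 8378 bp and 4606 bp.

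**Figure D5:**
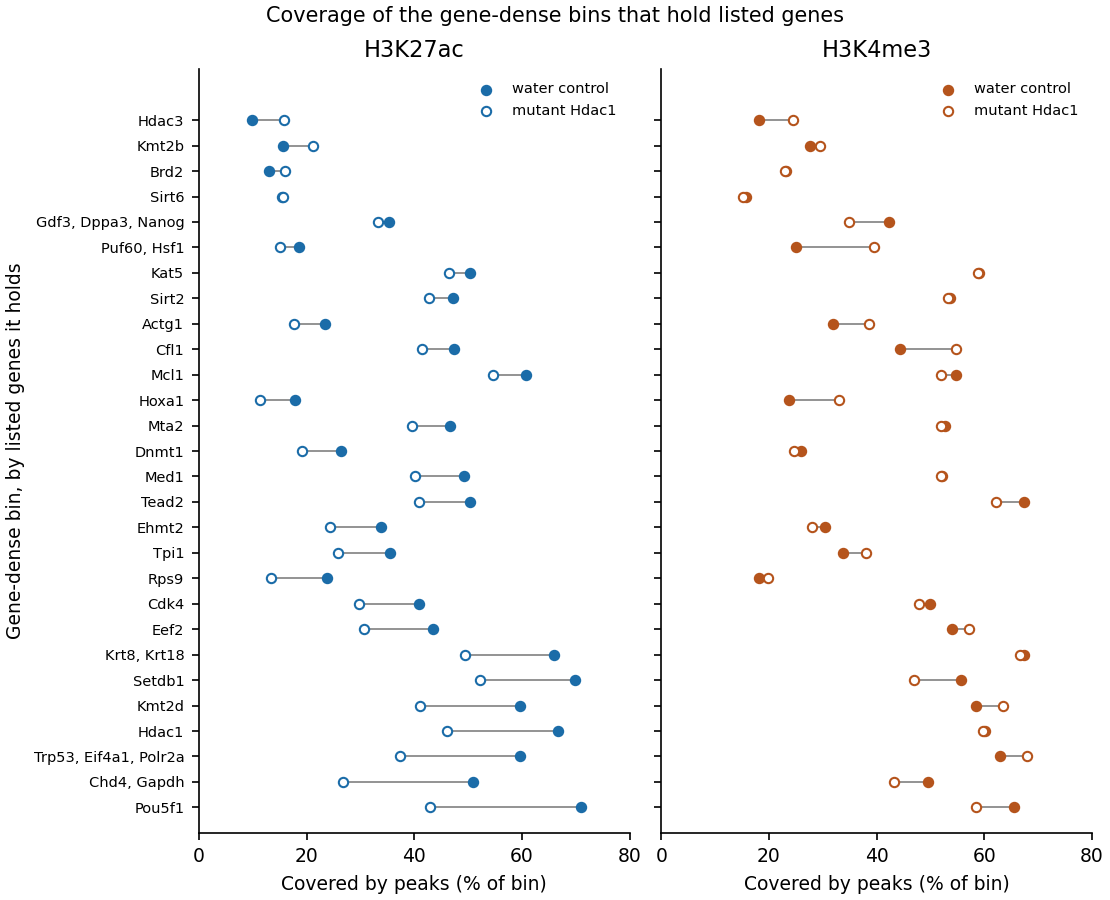
Coverage by H3K27ac (left) and H3K4me3 (right) peaks (horizontal axes, % of bin) of the 28 gene-dense bins that hold listed genes (vertical axis, by those genes), in control (filled) and mutant embryos (open), ordered by the H3K27ac difference in kb. The open H3K27ac point lies to the left in 24 of 28 bins, and the open H3K4me3 point in 17 of 28 as deposited.

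The bins with the largest differences were named by size of difference and are given as a description. The largest H3K27ac losses were at chr16:4500001-5000000 (Mgrn1, Ubald1, Cdip1; 339 kb and 177 kb), chr11:4500001-5000000 (Nf2, the gene for merlin, Nipsnap1 and Uqcr10; 332 kb and 173 kb), chr9:21000001-21500000 (Keap1, a regulator of the oxidative stress response; 359 kb and 206 kb) and the Pou5f1 bin. At the start of Keap1 the H3K27ac peak measured 42535 bp in control and none was listed in the mutant, and S1pr5 in the same bin had the same values. In the second of these bins H3K4me3 coverage was 247 kb in both lists. The largest gains were at chr11:61000001-61500000 (Tnfrsf13b, Mapk7, Slc47a2; 78.5 kb and 151 kb), chr9:54500001-55000000 (Psma4, Acsbg1, Crabp1; 56.8 kb and 119 kb), chr3:107500001-108000000 (Gstm5, Csf1, Ahcyl1; 32.0 kb and 84.9 kb) and chr12:85000001-85500000 (Ylpm1, Tmed10, Mlh3; 116 kb and 169 kb). The bins with the largest losses were covered by more than 60% in control, and those with the largest gains by less than 25%. Ranking by the difference favours such control values, so they are no separate result.

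For H3K4me3 the largest gain was at chr11:99000001-99500000, with 10 genes of the Krt stem beside Top2a, the gene for topoisomerase II alpha (151 kb in control and 241 kb in the mutant). At the start of Krt10, a keratin of differentiated epidermis, the H3K4me3 peak measured 4244 bp and 24229 bp. The bin of Puf60 and Hsf1, the heat shock transcription factor (chr15:76000001-76500000), had 125 kb and 198 kb under H3K4me3, but 92.9 kb and 75.6 kb under H3K27ac. The largest H3K4me3 loss was at chr10:62500001-63000000, with Tet1, an enzyme that oxidises methylated cytosine (302 kb and 224 kb). H3K27ac coverage there was 343 kb and 249 kb. At the start of Tet1 the H3K27ac peaks measured 47057 bp and 5894 bp and the H3K4me3 peaks 53596 bp and 8027 bp. The control widths of both marks were also listed at Slc25a16 in this bin. A bin with 9 PRAME family genes (chr4:144000001-144500000) had 103 kb and 39.8 kb under H3K4me3 and 177 kb and 98.1 kb under H3K27ac.

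Not all gene-dense bins were rich in peaks. In 62 of them a clustered family or a run of predicted genes made up 50% or more of the counted genes, and these had a median H3K27ac coverage of 6.42% in control and 8.48% in the mutant, against 32.6% and 27.7% in the other 479. Their median H3K4me3 coverage was 8.93% and 10.3%, against 32.5% and 34.2%. Without the 3 bins of unsequenced stretches, which are among the 62, the family medians were 6.90% and 8.54% for H3K27ac and 10.9% and 11.3% for H3K4me3. Upstream sequences there were also poorer in CpG, with a median of 3 against 12. The H3K27ac ratio was 0.98 in the family bins (1 after scaling to equal totals) and 0.83 in the mixed bins.

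Among the families, the 3 bins of defensins, antimicrobial peptides, had a mean H3K27ac coverage of 1.28% in control and 2.58% in the mutant, a difference carried by 1 bin (2.79% and 6.65%), since the others had 0.898% and 1.07%, and 0.147% and 0.0300%. The 2 bins of clustered protocadherins, neuronal adhesion proteins, had 5.64% and 10.4%, and the bin of interferons 1.92% and 8.44%. The 3 histone bins had 19.6% and 24.0%. The 8 bins of zinc finger proteins, a large family of DNA-binding proteins, had 23.2% and 18%, and the 2 PRAME bins 25.2% and 16.3%. The 4 Hox bins had a mean of 22.2% and 18.9% for H3K27ac and did not go 1 way: the bin on chromosome 2 had 2.79% and 12.2%, against 17.8% and 11.4% on chromosome 6, 41.9% and 30.5% on chromosome 11 and 26.3% and 21.5% on chromosome 15. For H3K4me3 their mean was 29.9% and 37.4%. Family bins with little H3K27ac in control thus lay on both sides: the 2 prolactin bins had 1.53% and 1.06%, and the 2 bins of cornified envelope proteins 1.15% and 0.807%.

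The longest run of gene-dense bins was 13 bins on chromosome 11 (chr11:97000001-103500000) with 251 counted genes, among them Med1, Cdk12, the keratin cluster and Hdac5. Over this run H3K27ac coverage was 39.8% in control and 34.0% in the mutant, and H3K4me3 coverage 42.0% and 44.9%. Its 3 neighbouring keratin bins differed from each other. The one with Top2a and Krt10 had H3K27ac coverage of 24.4% and 30.1%, while the next, with 40 genes, 25 of them of the Krt stem, had 1.70% and 1.94% for H3K27ac and 0.797% and 2.34% for H3K4me3. The third (chr11:100000001-100500000, 15 of its 24 genes of the Krt stem) had 26.6% and 17.2% for H3K27ac and 24.9% and 26.1% for H3K4me3.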

How the data were processed

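Per the labels, native chromatin of late 2-cell embryos was digested with micrococcal nuclease and immunoprecipitated. The deposited data used were the authors' 4 peak lists (other units: chromosome, start and end positions, without scores), 1 for both libraries of a group. The submitters' processing notes name CASAVA, Trimmomatic, Bowtie2, SAMtools, Picard, MACS2, deepTools, mm10 and GRCm38, while their settings are not given in the sources used here, nor is whether replicates were pooled before calling. The smallest gap between peaks was 681, 602, 684 and 734 bp (H3K27ac control and mutant, H3K4me3 control and mutant), so the limits on joining may have differed between lists. Groups came from sample titles.

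Printed positions count from 1, after conversion from the BED convention. Covered bases, peak widths (peaks placed by midpoint) and start windows (at least 1 bp of overlap) were computed with Python 3.11.15 and NumPy 2.4.6, on functions first tested on simulated peaks. Scaling multiplies mutant bases to match the control autosomal total. Genes, starts and upstream sequences came from RefSeq tables of GRCm38.p6. Starts were listed for 15197 of 19207 counted genes, and strands were taken from them. The bins, gene lists and groups were chosen with earlier results of these data known. Bins named were the 6 with most genes, the 4 largest gains and losses of each mark, and those with listed genes. Genes named were the listed ones, up to 3 of each other named bin with the widest start peak in any list, and up to 4 of each group by control width. 1 gene of the inspection list is not reported here. Single bins named for the Hox and defensin families, the neighbouring keratin bins and genes over the widest peaks were added after values were seen. Alternatives changed joining, width, list size and bins, as the closing section reports.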

Additional observations from a re-analysis of the deposited data

How the results depend on the processing

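No paired analysis was possible because the 2 libraries of a group share 1 peak list, so the columns carry no replicate number, and for the same reason no replicate could be left out. Of 138 values recomputed under alternatives, 104 kept their direction and stayed within the spread over chromosomes, the counting interval or 1.5 times the main count, 32 moved by more and 2 turned round. Lists of equal size by width turned the H3K27ac median width ratio from 0.74 to 1.02. Scaling to equal autosomal totals, chosen after seeing the data, turned the H3K4me3 covered-base ratio from 1.04 to 0.94 and its lower bins from 7 to 14. The cause was not tested.

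The difference in the share of peaks wider than 5 kb (H3K27ac -12.35, H3K4me3 7.36 percentage points) kept its sign: -7.84 and 6.18 with common limits (gaps under 750 bp joined, peaks under 200 bp dropped), -6.86 for H3K27ac with peaks under 1 kb apart merged, -14.20 without peaks under 500 bp, -6.45 with lists of equal size, 9.56 for H3K4me3 in bins of 15 or more genes, -9.83 and 5.85 at a limit of 3 kb and -10.22 and 4.17 at 10 kb. Fewer bins pass at 15 genes, where lower and higher calls were 35 and 10 for H3K27ac and 0 and 9 for H3K4me3, the share of H3K27ac bases differed by -2.74 points, and marked starts by -213 and -137. Lower and higher calls at the laxer fold limit were 217 and 75 for H3K27ac and 36 and 91 for H3K4me3, and at 2-fold 6 and 23, and 1 and 9, which reverses the order for H3K27ac. Shares of all bins called at these 2 limits were not computed, so the counts stand without a background. Leaving out genes that begin in the first 3 Mb of each chromosome, an alternative added after seeing the data, left 538 bins. It could not change any of the 14 values, because the bins it dropped hold no peak and no listed start. These 14 are among the 104 values counted as kept and say nothing of stability. Without clustered-family bins 1 H3K4me3 bin was lower. Marked starts, mutant minus control, were -321 for H3K27ac and -222 for H3K4me3, against -555 for H3K27ac with lists of equal size, -69 and -96 with windows of 5 kb, and -115 and -122 at both gene ends of all counted genes, an alternative chosen after seeing the data. Depth is unknown and limits every value.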
